A study of Homo sapiens with 30 samples.

Results

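Strong H3K27ac peaks of OCI-Ly1 cells were compared between 150 nM JIB-04 and the solvent control, library by library. A strong peak had a mean of at least 100 reads over the 2 DMSO and the 2 JIB-04 libraries and lay on an autosome. This rule took 12183 of the 63580 H3K27ac consensus peaks (19.2%), which is 12183 of the 84848 consensus peaks of H3K27ac and H3K4me3 together. All 12183 entered the test. The question was which promoters and enhancers shifted alike in both JIB-04 libraries, and which did so in replicate 2 only.

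OCI-Ly1 is a human line of diffuse large B-cell lymphoma, studied here for how lymphoma cells keep their heterochromatin. The control cells received 0.01% DMSO, and the treated cells received JIB-04 at 150 nM or 500 nM. Chromatin immunoprecipitation sequencing gave 2 libraries per treatment for each mark. The time of treatment is not given in the labels, nor whether the replicates came from separate cultures, so p-values measure only the spread between these libraries.

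JIB-04 is a small molecule that blocks the Jumonji histone demethylases, enzymes that remove methyl groups from histone lysines. H3K27ac is the acetylation of lysine 27 on histone H3. It is placed by the acetyltransferases p300 and CBP, marks active promoters and enhancers, and in B cells lies over the genes that define the lineage.

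Of the strong peaks, 6453 lay at a gene start (within 1000 bp of one) and 5730 lay elsewhere, of which 4150 were inside a gene and 1580 outside genes. Of the 6453, 5399 lay at a listed start. The other 1054 counted through either end of a gene without a listed start, so some may lie at a gene's far end. Peaks at gene starts had a median length of 2076 bp and the others 2756 bp. The median of the mean count was 191 reads, and at 100 reads per library counting error alone gave a shift a standard error of 0.18 on the log2 scale. The strong peaks held 71.8% to 73.3% of the reads in peaks of each library, and these totals ran from 4360660 to 5410292. At the lower bound of the rule, the 454 peaks just inside it (within 5% of 100 reads) had median shifts of -0.00051 in replicate 1 and 0.059 in replicate 2, and the 500 peaks just outside it had -0.00095 and 0.022.

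All 9 B-cell markers, among them PAX5 and CD79A, had a strong peak at their start, with a summed level of 1096 to 1194 CPM in DMSO and 1096 to 1194 CPM at 150 nM. CPM is the usual library-scaled read count, taken here over tested peaks after TMM scaling. No peak lay at the start of any of the 6 myeloid or 4 erythroid markers. A peak lay at the start of 3 of 8 T-cell markers (CD8A, CD3D and CD3E) and at that of 1 of 5 epithelial markers (EPCAM). CD8A stood at 45.7 and 50.9 CPM in DMSO and at 42.9 and 53.3 CPM at 150 nM. EPCAM stood at 32.2 and 37.9 CPM in DMSO and at 28.0 and 38.6 CPM at 150 nM.

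A shift is a library's log2 CPM minus the mean of both DMSO libraries. The JIB-04 libraries were less alike than the other pairs. Between replicates 1 and 2 at 150 nM, 700 strong peaks (5.75%) differed by at least 0.5. The corresponding counts were 71 (0.583%) for the DMSO pair and 51 (0.419%) for the 500 nM pair. Replicate 1 differed that much from DMSO replicates 1 and 2 at 90 and 153 peaks, whereas replicate 2 did so at 514 and 219 peaks.

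One of the strong peaks, 1 of 12183, was called by edgeR's quasi-likelihood test (adjusted p under 0.05, background 0.00185% of the 54037 tested peaks). It lay inside NFE2L1 at chr17:48052051-48058172, about 3270 bp from the gene's start. NFE2L1 encodes a transcription factor that raises proteasome genes when the proteasome is impaired. Its peak carried 130.1 and 135.8 CPM in DMSO, 82.7 and 98.0 CPM at 150 nM, and 183.5 and 190.7 CPM at 500 nM. Both 150 nM libraries lay below, and both 500 nM libraries above, the DMSO libraries. The peak fell by 0.56 on the log2 scale at 150 nM (SE 0.10, edgeR adjusted p = 0.0420). The call was lost without either DMSO library and without either 500 nM library. It was also lost with the 4 libraries of the contrast alone and with the DESeq2 Wald test. The same held among the 12445 peaks with a mean of at least 100 reads on any chromosome or contig. Over the 17 alternatives, 1 of which was the main fit at a threshold of 0.1, its log2 fold change ran from -0.69 to -0.43. Both ends came from fits with 1 of the 150 nM libraries left out. With both 150 nM libraries kept, its edgeR adjusted p ran from 1.98e-07, with a term for a split of the libraries given below, to 0.99986.

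At an unadjusted p under 0.05 there were 439 strong peaks, 3.60% of them, against a background of 3.94% over all tested peaks. Of these, 246 of 6453 were at gene starts (3.81%) and 193 of 5730 elsewhere (3.37%). On simulated counts with 200 of the strong peaks changed by 0.5 on the log2 scale, the same test recovered 37.5% of them, and with a change of 1 it recovered 98.5%. Both JIB-04 libraries lay above both DMSO libraries at 1964 strong peaks (16.1%, background 14.9%) and below them at 1407 (11.5%, background 15.6%). At gene starts the shares were 20.2% above and 8.57% below, and elsewhere they were 11.6% above and 14.9% below.

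The peaks were then sorted into classes, which are a description and carry no test. A peak shifted alike when both JIB-04 libraries lay at least 0.5 from the DMSO mean on the same side and beyond both DMSO libraries. None of the 12183 strong peaks shifted alike to a higher level (background 2.04% of all tested peaks), and 5 did so to a lower level (background 2.56%). Most tested peaks are weaker than these, and their shifts carry larger counting error.

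The peak with the largest shift in common lay inside AIMP2, at chr7:6014923-6017433. AIMP2 encodes a scaffold protein of the multi-tRNA synthetase complex. The nearest position counted as a coding gene start, at 4814 bp, was assigned to EIF2AK1. Where a gene had no listed start either end counted, so this may be that gene's other end. The peak carried 34.7 and 35.3 CPM in DMSO and 20.0 and 22.1 CPM at 150 nM. At 500 nM it carried 59.9 and 64.7 CPM, above every other library. Its log2 fold change was -0.73 at 150 nM (SE 0.15, edgeR adjusted p = 0.264) and 0.83 at 500 nM (edgeR adjusted p = 4.46e-05, background 0.923% called). Over the alternatives the 150 nM adjusted p ran up to 0.999997, with the DESeq2 Wald test. With both 150 nM libraries kept, edgeR's adjusted p was under 0.05 with the term for the library split (0.00426) and with the replicate number as a block (0.0143).

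TRAF3IP2 encodes an adaptor of interleukin-17 receptor signalling that also acts in B cells. Its peak, at chr6:111564516-111567149, lay 130 bp from the gene's start and carried 36.1 and 38.5 CPM in DMSO against 24.4 and 25.1 CPM at 150 nM. The shifts were -0.60 and -0.57, nearly equal in the 2 libraries, and at 500 nM the levels were 46.0 and 58.5 CPM. A second peak at a gene start lay inside GSE1, within 746 bp of the start of the uncharacterised LOC124903739 (chr16:85523292-85526501). It carried 24.8 and 31.9 CPM in DMSO, 18.9 and 18.8 CPM at 150 nM, and 53.7 and 54.4 CPM at 500 nM.

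The last 2 also lay away from gene starts. The peak at chr5:177477566-177480362, 3932 bp from the start of DBN1, carried 28.0 and 28.9 CPM in DMSO, 19.5 and 16.6 CPM at 150 nM, and 50.5 and 60.8 CPM at 500 nM. DBN1 encodes drebrin, an actin-binding protein. The peak inside LOC105374511, at chr4:19570300-19572838, carried 37.5 and 28.7 CPM in DMSO, 22.5 and 19.0 CPM at 150 nM, and 24.3 and 19.9 CPM at 500 nM. It was the only one of the 5 whose 500 nM libraries were both below DMSO.

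Of the 5 peaks, 4 stood above DMSO at 500 nM and 3 were called higher there (AIMP2, the GSE1 locus and the DBN1 locus). Over all 12183 strong peaks 6493 stood above DMSO at 500 nM, and 217 were called in either direction. The DMSO libraries are shared by the comparisons at 150 and 500 nM. At 150 nM none of the 5 passed the test over all peaks with edgeR. With DESeq2 no strong peak was called, and with the replicate number as a block edgeR called 2, NFE2L1 and AIMP2, both lower (background 0.0037%).

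**Figure D1:**
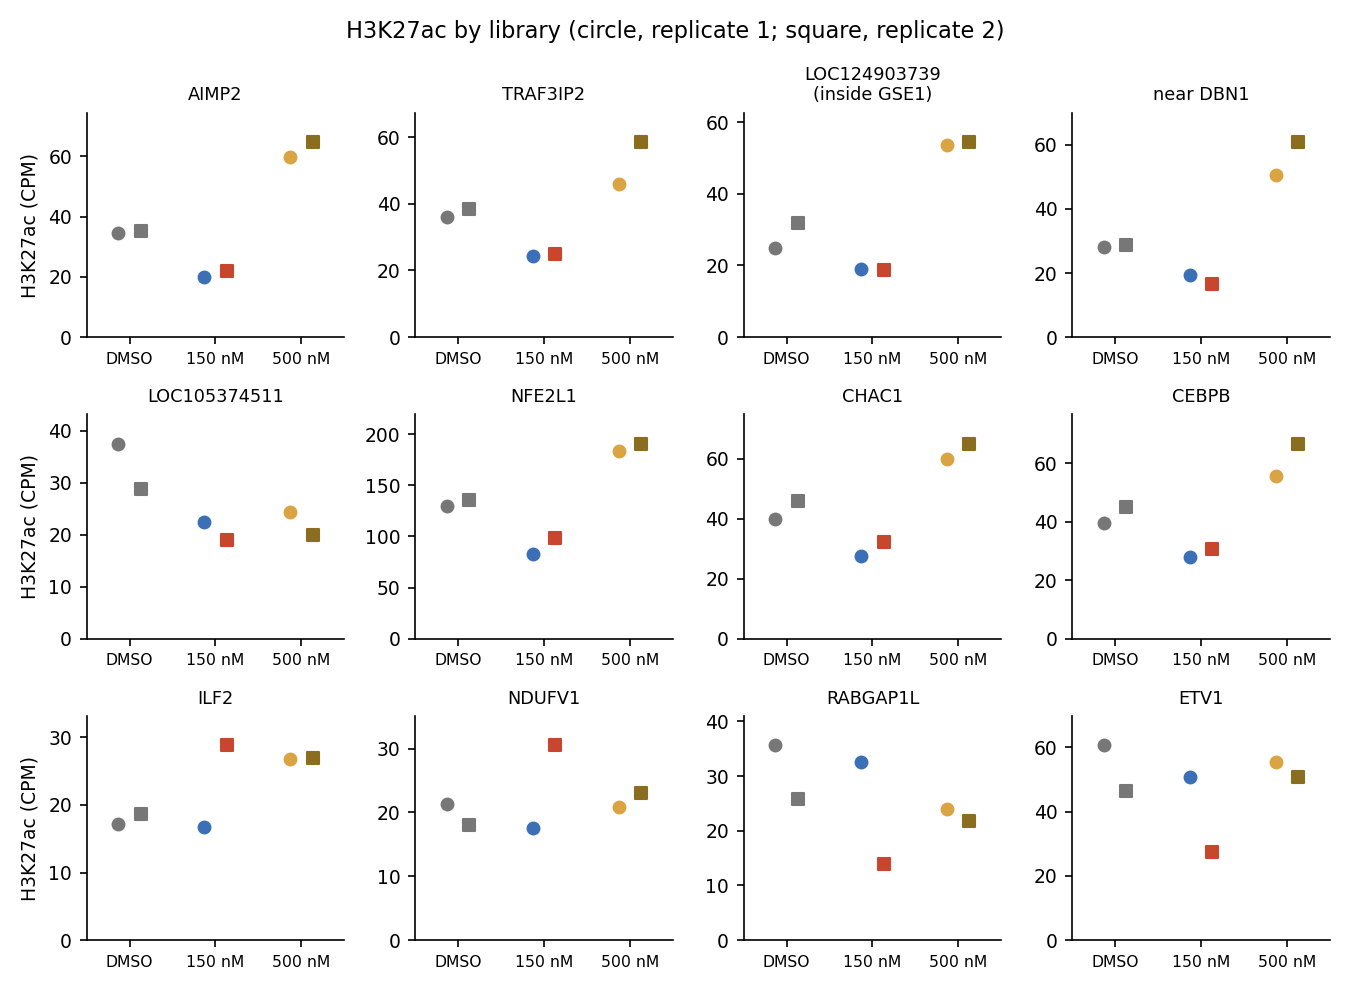
H3K27ac level in CPM (vertical axes, linear from 0) in each of the 6 libraries at 12 peaks, by treatment, with circles for replicate 1 and squares for replicate 2. In the first 8 panels both 150 nM libraries lie below both DMSO libraries, and in 7 of these 8 (all but LOC105374511) both 500 nM libraries lie above them. In the last 4 panels 150 nM replicate 2 lies beyond both DMSO libraries and replicate 1 does not lie far from them, and at ILF2 the 500 nM libraries are high too.

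With the smaller threshold of 0.3, 98 strong peaks shifted alike, 60 higher (background 5.07%) and 38 lower (background 6.15%). The higher ones were mostly promoters, with 46 at gene starts and 14 elsewhere, and they were short, with a median length of 1479.5 bp. Of the lower ones 11 were at gene starts and 27 elsewhere, with a median length of 2518 bp. None of the 60 passed the test over all peaks, and 1 of the 38, the NFE2L1 peak, did.

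Of the 11 lower gene starts, those of CHAC1 and CEBPB belong to genes of the stress response. The others were at TRAF3IP2, LOC124903739, ATG10, ESRP1, PYGB, ELAPOR2, MLLT6, NUGGC and UBE2L6. CHAC1 encodes a glutathione-degrading enzyme induced by the transcription factor ATF4. Its promoter peak (chr15:40951887-40954466) carried 39.8 and 45.9 CPM in DMSO, 27.6 and 32.2 CPM at 150 nM, and 59.9 and 64.9 CPM at 500 nM. CEBPB, a transcription factor of the same response and of inflammation, carried 39.5 and 44.9 CPM in DMSO, 27.8 and 30.7 CPM at 150 nM, and 55.8 and 66.7 CPM at 500 nM. Their log2 fold changes at 150 nM were -0.52 with a standard error of 0.14 for CHAC1 and -0.53 with 0.14 for CEBPB, and edgeR's adjusted p was 0.9997 for both. At 500 nM both were called higher by the test. CEBPB and the peaks named in the next paragraph were singled out after their values were seen.

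Among the 27 lower peaks away from gene starts, a peak inside CCDC12 (chr3:46952868-46958011) carried 46.9 and 49.3 CPM in DMSO, 32.5 and 38.6 CPM at 150 nM, and 83.6 and 93.7 CPM at 500 nM. Others lay inside PKM, a glycolytic enzyme gene, and inside CXCR4, a chemokine receptor gene of germinal centre B cells. The PKM peak carried 51.5 and 54.4 CPM in DMSO, 42.1 and 40.3 CPM at 150 nM, and 38.2 and 35.8 CPM at 500 nM. The CXCR4 peak carried 27.4 and 23.9 CPM in DMSO, 20.4 and 19.2 CPM at 150 nM, and 23.2 and 22.9 CPM at 500 nM. Of the 38 lower peaks 18 stood above DMSO at 500 nM, against 6493 of all 12183 strong peaks. Of the 38, 12 were called there, 11 of them higher and the PKM peak lower, against 217 called in either direction over all strong peaks.

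Among the higher promoters, those nearest the threshold of 0.5 belonged to CNDP2, SNRPE and ZNF850. CNDP2, a dipeptidase gene, carried 14.9 and 19.9 CPM in DMSO and 23.4 and 26.2 CPM at 150 nM. SNRPE, a core protein gene of the spliceosome, carried 21.1 and 16.2 CPM in DMSO and 25.1 CPM in both 150 nM libraries. ZNF850, a zinc finger gene, carried 23.2 and 26.5 CPM in DMSO and 33.6 and 33.4 CPM at 150 nM. Singled out after their values were seen, the same class held 2 further genes of spliceosomal proteins, SNRPC and SNRPG. It also held the endoplasmic reticulum chaperone gene HSPA5, which carried 15.6 and 20.5 CPM in DMSO, 23.2 and 27.5 CPM at 150 nM, and 27.3 and 25.8 CPM at 500 nM. Away from gene starts the largest shifts in common, by the smaller of the 2 shifts, were 39558 bp from FOXK1, then 20789 bp from ID3, then inside RPS29. The FOXK1 peak carried 16.3 and 18.1 CPM in DMSO and 24.6 and 23.4 CPM at 150 nM. The ID3 peak carried 18.2 and 20.7 CPM in DMSO and 25.5 and 26.95 CPM at 150 nM. The RPS29 peak carried 20.0 and 19.5 CPM in DMSO and 25.9 and 28.7 CPM at 150 nM. Of the 60 higher peaks 59 stood above DMSO at 500 nM, and 4 were called there. Over all strong peaks 6493 of 12183 stood above DMSO at 500 nM and 217 were called, and over gene starts 4223 of 6453 stood above. The 60 were chosen for lying above the same DMSO libraries, so part of this agreement is built in.

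A peak shifted in replicate 2 only when replicate 2 lay at least 0.5 from the DMSO mean and beyond both DMSO libraries while replicate 1 lay within 0.2 of that mean. This held for 177 strong peaks, 24 higher (background 1.85%) and 153 lower (background 4.67%). With TMM factors from the strong peaks alone the split was 5 higher and 219 lower. The mirror class for replicate 1 held 24 peaks, 4 higher (background 2.3%) and 20 lower (background 2.55%). A further peak, inside COL3A1, shifted by at least 0.5 in opposite directions. The higher and lower classes of replicate 2 lay at different places: 20 of the 24 higher peaks were at gene starts, and 138 of the 153 lower peaks were elsewhere. For replicate 1 the lower class lay mostly at gene starts, with 13 of 20.

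At the smaller threshold of 0.3 the same places held the classes. Replicate 2 only was higher at 611 peaks (background 5.79%), of which 482 were at gene starts, and lower at 624 (background 8.73%), of which 535 were elsewhere. Replicate 1 only was higher at 168 peaks (background 5.21%), of which 124 were elsewhere, and lower at 363 (background 5.96%), of which 235 were at gene starts. The places of the 2 libraries' classes were thus opposite at this threshold too.

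**Figure D2:**
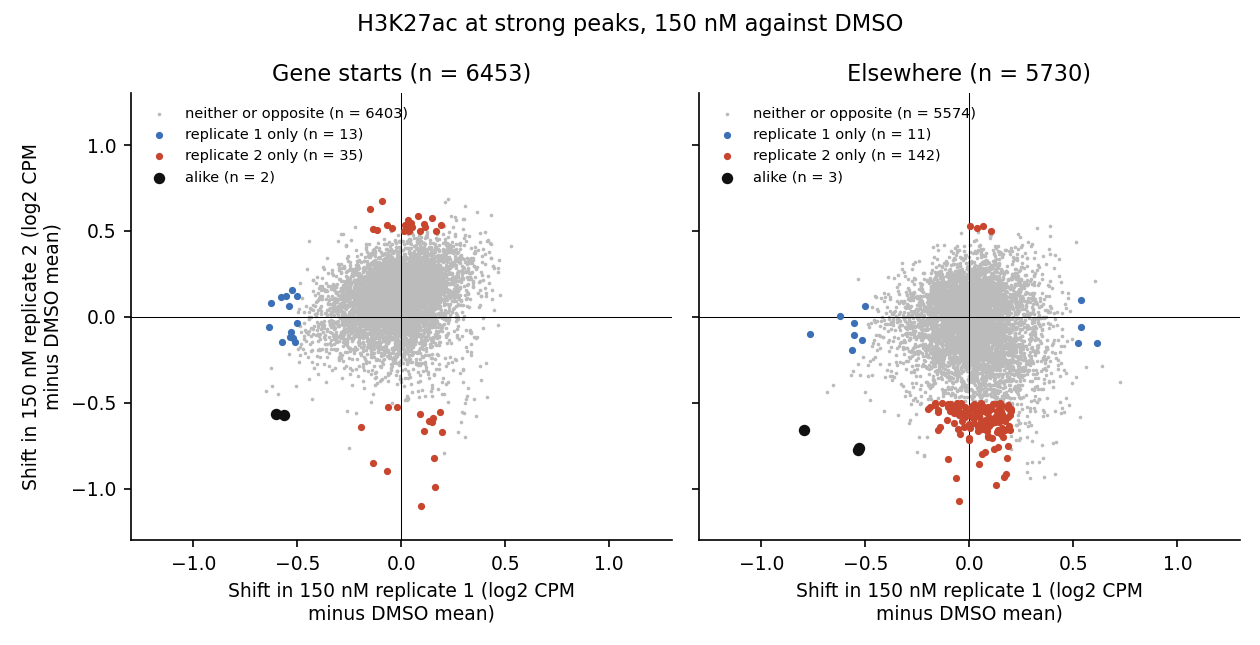
Shift of each strong peak in 150 nM replicate 1 (horizontal axis) and replicate 2 (vertical axis), as log2 CPM minus the DMSO mean, for 6453 gene starts (left) and 5730 peaks elsewhere (right), coloured by class. The replicate 2 only points at gene starts lie both above (20) and below (15) the middle, and those elsewhere lie almost all below it (138 of 142).

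The promoters shown next are those with the largest shift at a gene start: 1 of the peaks lower in both libraries, 3 higher in replicate 2 only and 1 lower in replicate 2 only. They are shown so that their base composition can be read beside their values. Each is the 200 bases before the gene's start, with each CG dinucleotide in capitals, from RefSeq on GRCh38.p14 and written 5′ to 3′ on the gene's strand. TRAF3IP2 (chr6:111567280-111567479, minus strand) was lower in both libraries, NDUFV1 (chr11:67606736-67606935, plus strand), ILF2 (chr1:153670994-153671193, minus strand) and HMHB1 (chr5:143811961-143812160, plus strand) were higher in replicate 2 only, and RABGAP1L (chr1:174274900-174275099, plus strand) was lower in replicate 2 only.
TRAF3IP2: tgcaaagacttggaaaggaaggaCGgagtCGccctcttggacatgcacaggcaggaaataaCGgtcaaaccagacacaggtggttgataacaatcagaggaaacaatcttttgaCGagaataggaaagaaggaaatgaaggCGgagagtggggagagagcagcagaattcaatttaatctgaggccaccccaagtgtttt
NDUFV1: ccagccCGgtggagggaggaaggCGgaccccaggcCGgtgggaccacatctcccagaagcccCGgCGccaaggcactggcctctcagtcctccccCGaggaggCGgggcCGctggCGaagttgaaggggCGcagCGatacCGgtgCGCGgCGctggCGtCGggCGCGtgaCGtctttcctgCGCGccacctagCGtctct
ILF2: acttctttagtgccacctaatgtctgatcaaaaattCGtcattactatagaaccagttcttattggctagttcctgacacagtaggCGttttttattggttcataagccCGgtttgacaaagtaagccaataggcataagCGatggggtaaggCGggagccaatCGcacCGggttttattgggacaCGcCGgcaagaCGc
HMHB1: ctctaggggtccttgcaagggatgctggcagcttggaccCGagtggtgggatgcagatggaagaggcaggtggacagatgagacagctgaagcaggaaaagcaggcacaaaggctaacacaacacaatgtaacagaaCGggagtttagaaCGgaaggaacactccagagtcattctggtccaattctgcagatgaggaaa
RABGAP1L: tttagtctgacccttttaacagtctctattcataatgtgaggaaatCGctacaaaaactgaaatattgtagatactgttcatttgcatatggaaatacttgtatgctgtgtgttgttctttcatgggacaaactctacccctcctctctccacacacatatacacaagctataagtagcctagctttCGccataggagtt
These hold 5 CG dinucleotides in TRAF3IP2, 23 in NDUFV1, 10 in ILF2, 3 in HMHB1 and 2 in RABGAP1L. The GC content of the same bases was 46.5%, 72.5%, 46.0%, 51.5% and 38.0%. The higher promoters of replicate 2 thus span a wide range, and that of ILF2 lies close to TRAF3IP2.

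The promoter with the largest higher shift in replicate 2 only was that of ILF2, which encodes a double-stranded RNA-binding protein. Its peak (chr1:153670031-153671005) carried 17.2 and 18.7 CPM in DMSO and 16.8 CPM in replicate 1 but 28.8 CPM in replicate 2. NDUFV1, a subunit gene of mitochondrial complex I, carried 21.4 and 18.1 CPM in DMSO, 17.6 CPM in replicate 1 and 30.5 CPM in replicate 2. HMHB1, a minor histocompatibility antigen gene, carried 17.9 and 18.3 CPM in DMSO, 19.1 CPM in replicate 1 and 27.3 CPM in replicate 2. At all 3, replicate 2 stood above every DMSO library and replicate 1 lay close to them.

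The other promoters of that class included those of ATG2A, BIRC5, C4orf46, CHCHD3, DNAAF5, FASTKD2, GLOD4, GMNN, LOC124903662, QRICH1, RNASEH2A, RPS15, TBCD, THBS2-AS1, TOP6BL and WDR4. GMNN, singled out after its values were seen, encodes geminin, a regulator of replication licensing. It carried 51.5 and 48.1 CPM in DMSO, 53.8 CPM in replicate 1 and 72.6 CPM in replicate 2. None of the 17 strong promoters of the DNA replication list was in the class. The 4 higher peaks elsewhere lay inside HNRNPUL1, HIVEP1 and FBLN7 and 26984 bp from the start of ACTB, and their replicate 2 shifts ran from 0.50 to 0.53.

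Among peaks counted as gene starts and lower in replicate 2 only, that of RABGAP1L, which encodes a GTPase-activating protein, shifted most. Its peak (chr1:174273108-174275312) carried 35.6 and 25.9 CPM in DMSO and 32.5 CPM in replicate 1 but 13.9 CPM in replicate 2. LINC01222 carried 37.9 and 28.7 CPM in DMSO, 37.0 CPM in replicate 1 and 16.4 CPM in replicate 2. PLEKHF2, on chromosome 8, carried 39.8 and 24.5 CPM in DMSO, 29.7 CPM in replicate 1 and 16.6 CPM in replicate 2. For LINC01222 and PLEKHF2 no start was listed and either gene end counted, so these peaks may not be promoters. At all 3 replicate 2 was the lowest of the 6 libraries, and DMSO replicate 2 lay below DMSO replicate 1.

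MEF2C, which encodes a transcription factor of germinal centre B cells, was also in that class through a long peak at chr5:88822138-88833096. It carried 169.2 and 144.6 CPM in DMSO, 173.2 CPM in replicate 1, 102.4 CPM in replicate 2, and 173.7 and 160.9 CPM at 500 nM. ATF7IP, a partner of the H3K9 methyltransferase SETDB1, carried 41.6 and 37.7 CPM in DMSO, 42.7 CPM in replicate 1 and 24.9 CPM in replicate 2. HDAC9, also singled out afterwards, is a class IIa histone deacetylase gene and carried 33.3 and 35.9 CPM in DMSO, 30.2 CPM in replicate 1 and 22.1 CPM in replicate 2.

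The 138 lower peaks elsewhere lay far from gene starts, at a median distance of 35307.5 bp against 18171 bp for all 5730 strong peaks elsewhere. Of the 138, 114 were more than 10 kb and 50 more than 50 kb from a gene start, and 113 lay inside a gene. Of these 113, 98 lay in coding genes, 85 genes in all, of which 10 held more than 1 such peak. TCF4, which encodes an E protein of the B lineage, held 5 of them among its 15 strong peaks away from its starts. ELF1, an ETS family gene, held 3 of 5. The ELF1 peaks lie next to each other, as do some of the TCF4 peaks, so these share a neighbourhood and are not independent.

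Among the 3 with the largest shifts, 1 lay inside a coding gene. The peak inside ETV1, an ETS family transcription factor gene, lay at chr7:13978858-13984858. It carried 60.7 and 46.5 CPM in DMSO, 50.8 CPM in replicate 1, 27.5 CPM in replicate 2, and 55.6 and 50.8 CPM at 500 nM. The peak at chr2:161269179-161272176, 36249 bp from the start of the proteasome gene PSMD14, carried 32.6 and 19.7 CPM in DMSO, 24.4 CPM in replicate 1 and 11.9 CPM in replicate 2. The peak at chr10:65499343-65502666, outside genes and 1423370 bp from the nearest coding gene start, that of LRRTM3, carried 33.3 and 23.9 CPM in DMSO, 30.8 CPM in replicate 1 and 14.1 CPM in replicate 2.

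DMSO replicate 2 differed from DMSO replicate 1 in the same direction as 150 nM replicate 2 at most of these peaks. At the 153 peaks lower in replicate 2 only, DMSO replicate 2 was above DMSO replicate 1 at 33, with a median difference of -0.15. At the 24 higher peaks, 20 of them at gene starts, it was above at 17, with a median difference of 0.12. Over all strong peaks it was above at 7543 of 12183 (median 0.044), and over gene starts at 4324 of 6453 (median 0.064). The share at the 24 higher peaks was thus near that of all gene starts, and only the 153 lower peaks stood far from the share of all strong peaks. On 5 unplaced contigs, known from an earlier analysis of these data, the same libraries stood apart. DMSO replicate 2 and 150 nM replicate 2 had 71.5 and 45.9 CPM there, against 322 to 446 CPM in the other 4 libraries. The part of this split in the results was not tested beyond a fit with the split as a term, which called 3 strong peaks, all lower (background 0.0074%): NFE2L1, AIMP2 and a peak over SHMT2. In the 500 nM libraries, 23 of the 24 peaks higher in replicate 2 only also exceeded DMSO (median fold change 0.31 in log2). Of the 153 lower peaks 41 did so, and their median was -0.085. Each of the 2 classes held 2 peaks called at 500 nM. The corresponding counts were 6493 of all 12183 strong peaks and 4223 of 6453 gene starts. Both classes were chosen against the same DMSO libraries, so part of this is built in.

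The shift differed with the distance to a gene start, in opposite directions in the 2 JIB-04 libraries. Within 1 kb of a start the median shift was 0.12 in replicate 2 and -0.023 in replicate 1. From 1 to 10 kb it was -0.0045 and -0.0088, and from 10 to 50 kb it was -0.032 and 0.014. Beyond 50 and up to 200 kb (1059 peaks) it was -0.10 in replicate 2 and 0.035 in replicate 1. At 111 peaks over 200 kb from any start it was -0.22 and 0.078. The DMSO libraries differed with distance too: DMSO replicate 2 minus replicate 1 went from 0.064 within 1 kb to -0.055 over 200 kb.

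**Figure D3:**
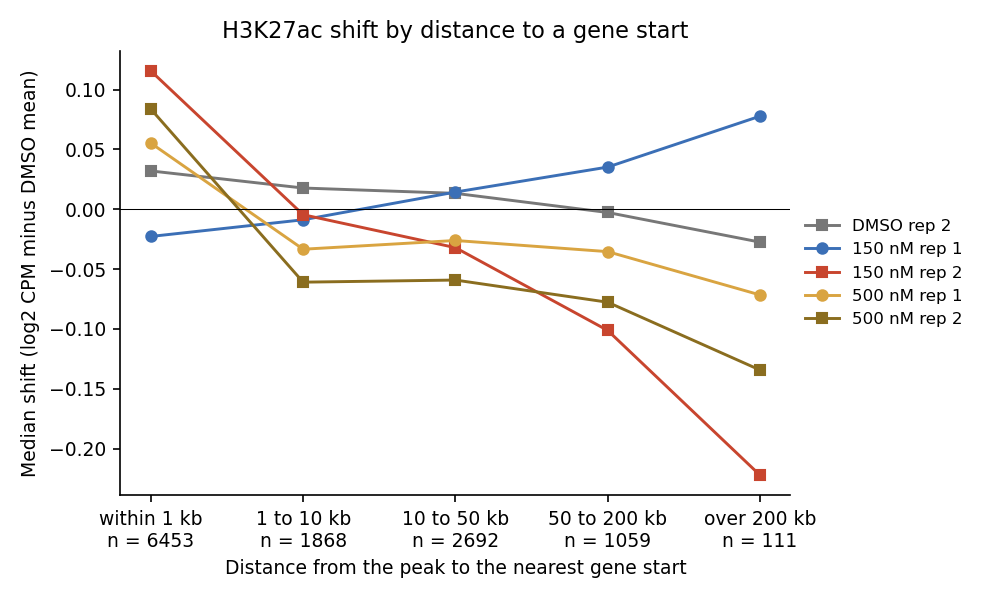
Median shift of strong peaks (log2 CPM minus the DMSO mean, vertical axis) in 5 groups by distance to the nearest gene start (horizontal axis) for DMSO replicate 2 and the 4 JIB-04 libraries. The line of 150 nM replicate 2 runs from 0.12 within 1 kb to -0.22 beyond 200 kb, that of 150 nM replicate 1 runs the other way, from -0.023 to 0.078, and those of 500 nM run from 0.055 and 0.084 to -0.072 and -0.13. That of DMSO replicate 2 runs from 0.032 to -0.027.

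Per library, the median log2 CPM of gene starts minus that of the other strong peaks was -0.19 and -0.14 in DMSO and -0.21 and 0.013 at 150 nM. The 150 nM values lay on both sides of the DMSO values. Their difference from DMSO was 0.067 (mean -0.096 ± 0.16 against -0.16 ± 0.040, SD, n = 2 each; exact permutation test, two-sided p = 1, where 2 against 2 libraries cannot go below 0.333). Without 150 nM replicate 2 the difference was -0.042, and without 150 nM replicate 1 it was 0.18. The 500 nM libraries stood at -0.093 and -0.021.

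The same was seen within single genes. In 982 coding genes with strong peaks both at a start and elsewhere in the gene, the level at the start relative to the gene body was above its DMSO mean in 69.3% of genes in replicate 2 (median 0.12) and in 40.1% in replicate 1 (median -0.042). DMSO replicate 2 was above DMSO replicate 1 in 63.5% of these genes, with a median difference of 0.066.

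Gene starts were also grouped by the GC content of their promoter window, the 250 bases before to 50 bases after the start, which was at hand for 5399 of the 6453. In the lowest of 5 groups (median GC 51.0%) the median shifts were 0.016 in replicate 1 and 0.064 in replicate 2. In the highest group (median GC 76.3%) they were -0.058 in replicate 1 and 0.14 in replicate 2. The gap between the JIB-04 libraries thus went from 0.045 to 0.20. DMSO replicate 2 minus replicate 1 went from 0.040 to 0.10 over the same groups.

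**Figure D4:**
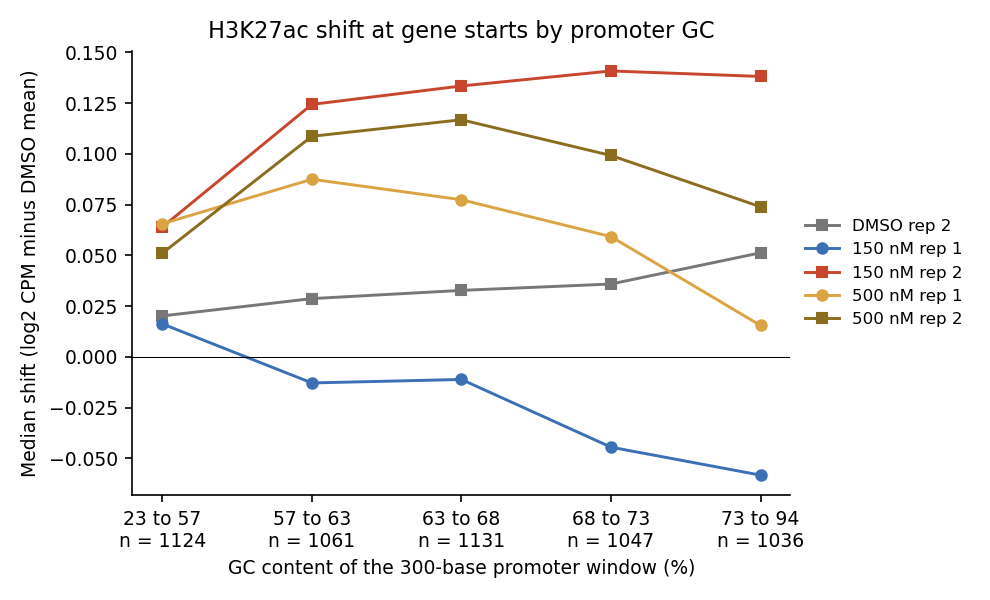
Median shift at gene starts (log2 CPM minus the DMSO mean, vertical axis) in 5 groups by GC content of the promoter window (horizontal axis, in percent) for DMSO replicate 2 and the 4 JIB-04 libraries. The lines of 150 nM replicate 1 and replicate 2 start at 0.016 and 0.064 and end at -0.058 and 0.14.

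The GC content of the replicate 2 only classes is given beside that of all windows. The 17 higher promoters with a window had a median GC of 64.7% and 29 CG dinucleotides, close to the 65.0% and 27 of all 5399. The 12 lower ones had a median GC of 43.2% and 2 CG dinucleotides. The part of base composition in these shifts was not tested.

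Chromosomes differed likewise. The median replicate 2 shift was highest on chromosome 19 (0.14), followed by chromosomes 16 (0.11) and 22 (0.11), and it was lowest on chromosomes 4 (-0.021) and 8 (-0.014). On chromosome 19 the replicate 1 median was -0.050, and none of its 676 strong peaks was lower in replicate 2 only. Chromosome 4 had 18 such peaks among 517. By length, the shortest group of peaks (median 1397 bp) had a median replicate 2 shift of 0.13 and the longest (median 5437 bp) one of -0.028.

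H3K4me3, a promoter mark that the choice of peaks did not use, was read at the same places. Of the strong peaks 8340 overlapped an H3K4me3 peak, 8057 different ones, and none of those was called between 150 nM and DMSO with edgeR or with DESeq2 (background 0% of 20402 tested). At an unadjusted p under 0.05 there were 348 with edgeR (4.32%, background 4.66%). At the 22 paired peaks where H3K27ac was higher in replicate 2 only, by a median of 0.52, the H3K4me3 median shifts were -0.0077 in replicate 1 and -0.0056 in replicate 2. At 38 paired peaks where H3K27ac was lower in replicate 2 only, by a median of 0.59, the H3K4me3 medians were 0.065 and -0.020. The replicate numbers of the marks are not stated to share chromatin.

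Promoters were also read by gene list, using for each gene its strongest peak at a start. No list held a called peak, and no list promoter shifted alike by 0.5. All 6453 gene starts had a median log2 fold change of 0.042, with 4087 higher and 2366 lower in the fit, median shifts of -0.023 and 0.12, and 246 peaks at an unadjusted p under 0.05 (3.81%). List values are given beside these.

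Of 18 transcription factors of the germinal centre and B lineage, 10 stood higher and 8 lower, with median shifts of -0.050 in replicate 1 and 0.068 in replicate 2. FOXO1 had the largest fold change, with 82.8 and 82.2 CPM in DMSO and 65.4 and 77.3 CPM at 150 nM, a log2 value of -0.21 with a standard error of 0.11. Of 15 promoters of B-cell receptor signalling 6 stood higher and 9 lower, with medians of -0.068 and 0.093, and 2 of the 15 were above the DMSO mean in replicate 1. Of 4 plasma cell promoters 1 stood higher and 3 lower, with medians of -0.11 and 0.046. The 4 MHC class II promoters had medians of 0.086 in replicate 1 and -0.0023 in replicate 2, the reverse order of all gene starts. CD22, an inhibitory co-receptor gene, carried 54.0 and 51.3 CPM in DMSO and 48.0 and 44.7 CPM at 150 nM. IRF4, a plasma cell factor, carried 62.8 and 72.0 CPM in DMSO, 49.9 CPM in replicate 1 and 70.5 CPM in replicate 2.

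Of the 19 lists those of hypoxia and glycolysis and of the Jumonji demethylases, the enzymes that JIB-04 inhibits, had medians below 0 in both libraries. Of 13 hypoxia and glycolysis promoters 3 stood higher and 10 lower, with median shifts of -0.20 in replicate 1 and -0.056 in replicate 2, and 2 had an unadjusted p under 0.05. VEGFA carried 39.5 and 45.5 CPM in DMSO and 31.0 and 36.0 CPM at 150 nM. EGLN1, an oxygen-sensing hydroxylase gene, carried 51.0 and 46.9 CPM in DMSO, 33.8 CPM in replicate 1 and 46.0 CPM in replicate 2. Of 13 demethylase promoters 5 stood higher and 8 lower, with medians of -0.13 and -0.011. KDM4B carried 37.7 and 47.7 CPM in DMSO, 29.1 CPM in replicate 1, 39.0 CPM in replicate 2 and 22.2 and 26.2 CPM at 500 nM. KDM2B carried 16.3 and 25.7 CPM in DMSO and 26.8 and 27.9 CPM at 150 nM, so its groups did not overlap but stood closer than its DMSO libraries did to each other.

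In the stress lists, as over all gene starts, replicate 2 had the higher median. The 10 promoters of the unfolded protein and integrated stress response had medians of -0.19 in replicate 1 and 0.096 in replicate 2, and 4 of the 10 had an unadjusted p under 0.05. CHAC1 and HSPA5, given above, had its largest fold changes, in opposite directions. Of 13 oxidative stress promoters none stood above the DMSO mean in replicate 1 and 7 did in replicate 2, against 2823 and 4849 of all 6453 gene starts. The ferritin light chain gene FTL carried 86.2 and 93.9 CPM in DMSO, 70.5 CPM in replicate 1 and 88.4 CPM in replicate 2.

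Ribosomal proteins, DNA replication and the proteasome were among the lists above all gene starts in both libraries. Of 67 ribosomal protein promoters 61 stood higher and 6 lower, with median shifts of 0.019 and 0.21, and 5 (of 67) had an unadjusted p under 0.05. RPL37A carried 25.1 and 25.7 CPM in DMSO and 35.3 and 32.04 CPM at 150 nM, a log2 value of 0.40 with a standard error of 0.15. Of 32 proteasome promoters 25 stood higher, with medians of 0.076 in replicate 1 and 0.13 in replicate 2. PSMB5, a catalytic subunit gene and a target of NFE2L1, carried 32.2 and 36.9 CPM in DMSO, 45.3 and 40.9 CPM at 150 nM, and 39.9 and 47.1 CPM at 500 nM. Of 17 DNA replication promoters 14 stood higher, with medians of 0.026 and 0.20.

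**Figure D5:**
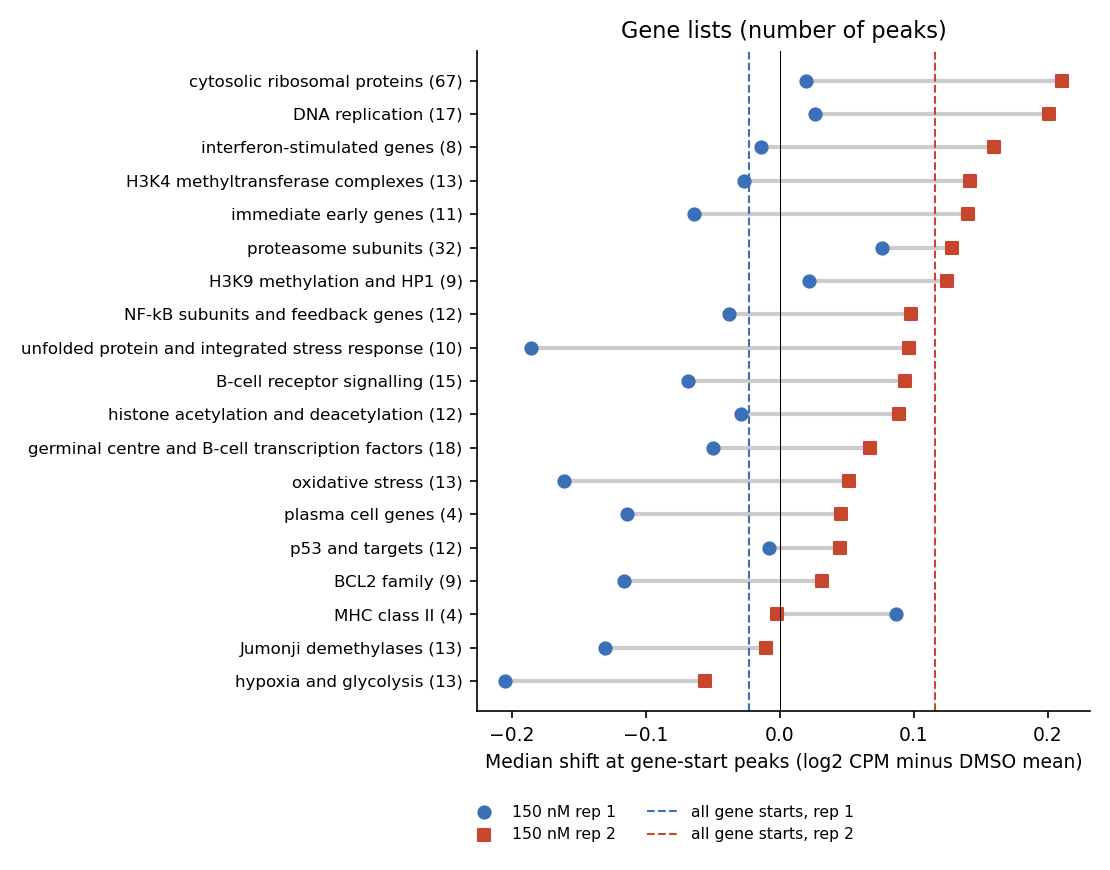
Median shift at the gene-start peaks of 19 gene lists (horizontal axis, log2 CPM minus the DMSO mean; number of peaks in brackets) in 150 nM replicate 1 (circles) and replicate 2 (squares), with dashed lines at the medians of all gene starts (-0.023 and 0.12). In 18 of the 19 lists the square lies to the right of the circle, and MHC class II, with 4 peaks, is the exception.

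Reads were also summed per coding gene over its strong peaks, for 619 genes with at least 3. Both JIB-04 libraries stood above both DMSO libraries in 54 genes (8.72% of the 619) and below them in 77 (12.4%). Over all tested single peaks the shares were 14.9% and 15.6%. Of the genes higher in both, IFNAR2-IL10RB, a readthrough locus of cytokine receptor genes, had the largest shift, with 124.6 and 131.2 CPM in DMSO and 141.9 and 152.9 CPM at 150 nM. POU2F2, which encodes the B-cell factor OCT2, carried 116.8 and 127.4 CPM in DMSO and 132.6 and 143.4 CPM at 150 nM.

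Replicate 2 departed in more genes than replicate 1. It differed from the DMSO mean by at least 0.3 in 32 genes and replicate 1 in 3. SEMA3A carried 160.5 and 142.6 CPM in DMSO, 153.8 CPM in replicate 1 and 100.1 CPM in replicate 2. On the higher side, BANP carried 178.2 and 188.3 CPM in DMSO, 178.9 CPM in replicate 1 and 226.8 CPM in replicate 2.

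Each JIB-04 library was last set alone against DMSO with edgeR, with the spread taken from the other groups and the lone library assumed to vary like them, so these calls compare that library and not the dose. Replicate 2 alone gave 346 strong peaks (background 0.849% of 59802 tested): 62 higher and 47 lower at gene starts, 13 higher and 224 lower elsewhere. Replicate 1 alone gave 11 (background 0.025% of 59923), 2 higher and 9 lower. The peaks called in both numbered 2, NFE2L1 and AIMP2, and both were lower.

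Of the calls of replicate 1 alone, one peak covered the start of SHMT2, the mitochondrial serine hydroxymethyltransferase gene (chr12:57228778-57236562), with 284.4 and 294.4 CPM in DMSO, 209.3 CPM in replicate 1, 264.6 CPM in replicate 2, and 221.9 and 229.2 CPM at 500 nM. Another lay inside SLC7A5, an amino acid transporter gene (chr16:87849897-87857791), with 145.3 and 157.0 CPM in DMSO, 115.0 CPM in replicate 1 and 136.3 CPM in replicate 2. A peak inside CHLSN (chr7:999088-1002742) carried 106.2 and 109.5 CPM in DMSO, 72.9 CPM in replicate 1, 94.2 CPM in replicate 2, and 62.5 and 57.7 CPM at 500 nM. At these 3 peaks replicate 2 also lay below both DMSO libraries. The other called peaks lay over COXFA4L2, LOC105373882 and SCIRT, inside GPI and ST8SIA4, and nearest RIPK2. Those at ST8SIA4 and near RIPK2 were the 2 higher ones, and there replicate 2 lay below both DMSO libraries.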

How the data were processed

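The deposited values were read counts per consensus peak, made with featureCounts 2.0.1 per the file headers, which record a minimum overlap fraction of 0.2 and a paired-read option, while the labels describe single reads of 50 bp. Per the submitters' processing notes, the tools included Trim Galore 0.6.7, BWA 0.7.17-r1188, Picard 2.27.4, MACS2 2.2.7.1, deepTools 3.5.1 and edgeR 3.42.4, and the build was GRCh38.

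The 6 H3K27ac libraries (2 DMSO, 2 at 150 nM, 2 at 500 nM) were fitted together with edgeR 4.0.16 (filterByExpr, TMM, quasi-likelihood test, Benjamini-Hochberg adjustment over 54037 peaks, threshold 0.05), limma 3.58.1, R 4.3.3 and Python 3.11.15. DESeq2 1.42.0 was an alternative. Log2 CPM used a prior count of 2. Members and gene lists were chosen with earlier results of these data known. On simulated counts with no change and the same spread in all 6 libraries, 0 peaks were called.

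Gene starts came from a RefSeq table of GRCh38.p14: 27305 genes had a start, and for 11081 coding or long noncoding genes without one either end counted. Exons and UTRs were not analysed here. Peaks were named by rule: the 3 strong peaks with the largest shift in each class and position, each called peak, and the 2 largest fold changes in each gene list. A few named items are not reported here.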

Additional observations from a re-analysis of the deposited data

How the results depend on the processing

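The counts rest on reads without molecular identifiers, and 2 libraries per group limit every comparison. In place of 1 called strong peak, the count was 0 among the 12445 peaks with a mean of at least 100 reads on any chromosome or contig. It was 0 with the 4 libraries of the contrast alone, 0 with the DESeq2 Wald test and 3 with the library split as a term. The labels do not say what a replicate number shares; same-numbered libraries had correlated deviations (r over strong peaks 0.29 for DMSO and 150 nM, 0.10 for DMSO and 500 nM, 0.25 for 150 and 500 nM). With the replicate block the count was 2 (NFE2L1 and AIMP2, background 0.0037%). Leaving out 1 library gave 0 to 346 calls: 0 without either DMSO or either 500 nM library, 346 with replicate 1 of 150 nM left out and 11 with replicate 2 left out. The cause was not tested.

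In place of 5 peaks shifted alike, there were 98 at a shift of 0.3, 0 at 0.75, 33 at a mean count of at least 50, 0 at 200, and 8, all lower, after centring gene starts and other peaks apart (chosen after seeing the data). With same-number libraries paired, as in a replicate block, there were 7. In place of 177 peaks shifted in replicate 2 only (24 higher, 153 lower), there were 1235 at 0.3 (611 higher, 624 lower), 17 at 0.75, 457 at a mean count of 50 and 57 at 200, and 142 with the replicate block (37 of them higher). Scaling moved the split: 5 higher and 219 lower with TMM on strong peaks, 8 and 186 with loess. Removing a smooth fit on promoter GC, also chosen after seeing the data, subtracts the overall shift of gene starts too, so its counts are not read.

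The gene-start difference of 0.067 stayed at 0.067 with the replicate block and ran from -0.042 (without 150 nM replicate 2) to 0.18 when 1 library was left out. H3K4me3 calls, 0 in the fit and 0 with the replicate block, ran from 0 to 2 when 1 library was left out: 2 with DMSO replicate 1 left out and 1 with 500 nM replicate 1 left out.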
